A study of Mus musculus with 10 samples.

Results

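Ribosome biogenesis genes encode the factors that make a ribosome but are not part of it. A list of 55 of them was followed in mouse embryonic stem cells (ESCs), in 5 groups by role: RNA polymerase I and its initiation factors, small nucleolar ribonucleoproteins (snoRNPs), assembly of the small subunit, assembly of the large subunit, and nucleolar proteins with several roles. Of the 55 genes, 53 could be read from a probe set that carries 1 gene symbol, out of 18193 genes so measured, and where a gene had several such probe sets the brightest over the arrays was used. Mrto4 lay only on a probe set with several symbols and Npm3 had no probe set with 1 symbol, so neither was measured. The list goes by what the genes do and uses no measured value, though it was chosen with earlier results of these data known. On average over the arrays the 53 members lay between 7.27 and 14.0 in log2 intensity, so all were above a log2 of 6, under which 59.6% to 60.1% of the probe sets of an array lay and which is called dim here.

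All cells belonged to CJ9, an ESC line of 129SvJ origin. They had received a lentivirus with 1 of 2 hairpins against Wapal (Wapal shRNA1 and Wapal shRNA2), with 1 of 2 hairpins against Smc3 (Smc3 shRNA1 and Smc3 shRNA2), or with no hairpin (Empty Vector). All groups shared the infection of 48 h with 10 µg/mL polybrene, the medium with LIF and 4 µg/mL puromycin that followed, and the harvest after 48 h of culture. Each of the 5 groups had 2 arrays, 10 in all, of the type Mouse Genome 430 2.0 (Affymetrix), which read total RNA of the whole culture, so fewer cells with a transcript and less of it per cell cannot be told apart. The questions were whether the members changed when Wapal or Smc3 was depleted, whether both hairpins against a gene did so, and whether the depletions differed. Wapal, the product of Wapl, removes cohesin from chromatin, and Smc3 is a core subunit of the cohesin ring.

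Ribosome synthesis begins in the nucleolus, where RNA polymerase I copies the ribosomal DNA into 1 long precursor RNA. SnoRNPs modify that RNA, early processing complexes cleave it, and assembly factors then carry the growing small and large subunits out of the nucleus. Stem cells that divide quickly make many ribosomes, and the transcription factor Myc is known for raising the transcription of many of these genes.

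The deposited values are intensities per probe set that the authors normalized with RMA. They were compared on the log2 scale with limma, and a change was called where the p-value adjusted over 45037 probe sets by the Benjamini-Hochberg method was under 0.05. An n of 4 against 2 stands behind each comparison of a depletion with Empty Vector, and both comparisons share the same 2 Empty Vector arrays. The targets fell in their own groups. Wapl had 929 and 1005 in Wapal shRNA1 arrays and 235 and 217 in Wapal shRNA2 arrays, against 2500.1 and 2648 in Empty Vector arrays (log2 fold change over both hairpins -2.46 ± 0.10, SE, adjusted p = 0.000123). Replicates of each Wapal hairpin were alike in Wapl under GEO's labels, and shRNA1 left more of it than shRNA2. Smc3 had 187 and 176 in Smc3 shRNA1 arrays and 223 and 189 in Smc3 shRNA2 arrays, against 1536 and 1555 in Empty Vector arrays (-3.00 ± 0.10, adjusted p = 3.26e-05). None of 10 ESC markers was dim, and their summed intensity ran from 63043 to 70431 in Wapal arrays and from 58316 to 65635 in Smc3 arrays, against 65492 to 69298 in Empty Vector arrays, with 2 of them lower in Wapal-depleted and 4 in Smc3-depleted cells. Of 9 fibroblast markers 8 were dim, and their sum was 251 to 306 in Wapal arrays and 268 to 343 in Smc3 arrays, against 324 to 378 in Empty Vector arrays. Of the markers of other lineages, 5 of 8 (trophectoderm), 3 of 4 (mesoderm), 6 of 6 (endoderm) and 2 of 5 (ectoderm) were dim. Called with Wapal depletion were 1 higher and 2 lower fibroblast, 1 higher trophectoderm and 1 lower ectoderm marker, and with Smc3 depletion 2 higher and 1 lower fibroblast, 1 lower trophectoderm, and 1 higher and 1 lower ectoderm marker. The endoderm sums were 170.4 to 189 in Wapal arrays and 147 to 161 in Smc3 arrays, against 148 to 160.3 in Empty Vector arrays. What part these cell types had in the members' values was not tested. The arrays also fell into sets that cross the groups and that no label names: Empty Vector 1, both Wapal shRNA1 and both Smc3 shRNA2 arrays on one side, the other 5 arrays on the other. Over all probe sets, the difference between the sides in Wapal-depleted cells, in Smc3-depleted cells and in Empty Vector cells, each taken from different arrays, correlated with r of 0.31 to 0.40. Over the 53 members r was 0.60 between the Wapal and Empty Vector differences, 0.25 between those of Smc3 and Empty Vector and 0.07 between those of Wapal and Smc3. Values within a side are therefore given too.

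With Wapal depletion, 8 of the 53 members fell and none rose, and with Smc3 depletion 5 fell and none rose. On the brightest probe sets, the RNA polymerase I subunit gene Polr1e was the member that fell in both. The 8 members are 15.1% of 53, while 3.83% of all probe sets, and 7.96% of 7600 genes whose brightest probe set had a mean log2 of at least 7, were called lower with Wapal depletion. The 5 members are 9.43%, against 3.41% of all probe sets and 6.3% of the 7600 genes with Smc3 depletion. Without adjustment, p was under 0.05 for 23 members in Wapal-depleted cells and 27 in Smc3-depleted cells, all of them lower (RNA polymerase I 4 and 4, snoRNP 2 and 5, small subunit 10 and 9, large subunit 6 and 8, nucleolar 1 and 1). The share of all probe sets at an unadjusted p under 0.05 was not counted, here or for the unadjusted counts below. Of the 53 members, 41 were called in neither comparison.

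Most of the remaining members lay slightly below Empty Vector. The log2 fold change was below 0 for 48 of 53 members with Wapal depletion and for 49 of 53 with Smc3 depletion, where it was so for 46.8% and 50.2% of all probe sets and for 63.5% and 51.6% of the 7600 genes. The median over the members was -0.17 in Wapal-depleted cells and -0.21 in Smc3-depleted cells, where the median over all probe sets was 0.02 and -0.00077 and that over the 7600 genes was -0.07 and -0.0073. All 4 Wapal shRNA arrays lay below both Empty Vector arrays for 35 of the 53 members (14.1% of all probe sets and 28.7% of the 7600 genes did so), and all 4 Smc3 shRNA arrays did for 31 (12.2% and 19.2%). Within a side, the median difference of the members was -0.20 for Wapal shRNA1 minus Empty Vector 1, with 47 members below 0, and -0.13 for Wapal shRNA2 minus Empty Vector 2, with 46 below 0. It was -0.24 for Smc3 shRNA1 minus Empty Vector 2 (49 below 0) and -0.20 for Smc3 shRNA2 minus Empty Vector 1 (47 below 0). Over all probe sets these 4 medians lay between -0.0125 and 0.0125. Over a brighter part of the 7600 genes they lay between -0.06 and -0.02. Between the Empty Vector arrays themselves the median was -0.02, with 31 members below 0.

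**Figure D1:**
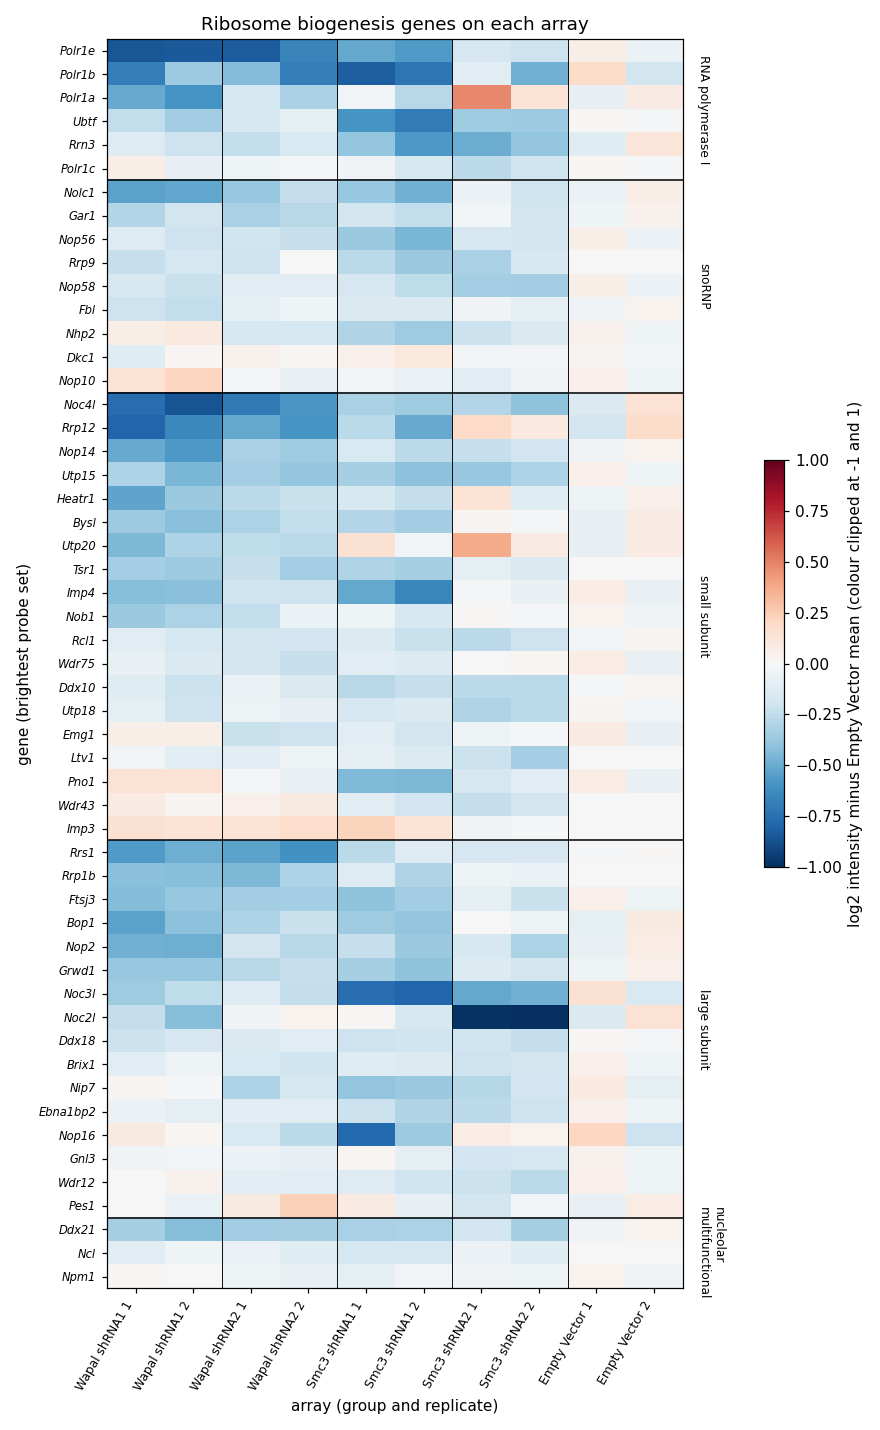
Colour map of the 53 members (rows, in 5 role groups, sorted by the Wapal log2 fold change) on the 10 arrays (columns), as log2 intensity minus the mean of the Empty Vector arrays, with the colour clipped at -1 and 1. Blue cells, below Empty Vector, fill most of the Wapal and Smc3 columns, with the darkest in Polr1e and Noc4l for Wapal and in Noc2l for Smc3 shRNA2.

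The medians lay further below 0 among less bright members. For the 20 members with a mean log2 between 8 and 10, the median was -0.35 with Wapal depletion and -0.27 with Smc3 depletion, against -0.10 and -0.01 for all 3506 genes of that level. For the 23 members between 10 and 12 it was -0.13 and -0.20, against -0.03 and -0.04 for 1611 genes. The 9 members above 12 had medians of -0.08 and -0.11, against -0.0084 and -0.02 for 417 genes. Polr1a alone lay below 8. The brightness of a probe set thus moved with the size of the median, and its part in the result was not tested.

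**Figure D2:**
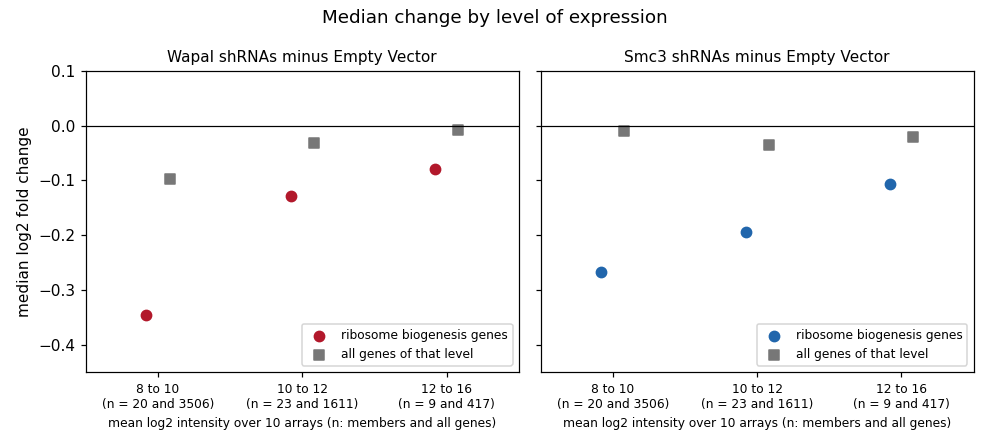
Median log2 fold change (y axis) of the members (circles) and of all genes (squares) in bins of mean log2 intensity (x axis, with the numbers of members and of all genes), for Wapal shRNAs minus Empty Vector (left) and Smc3 shRNAs minus Empty Vector (right). In the 3 bins shown, which leave out Polr1a, the members' median lies below that of all genes, between 8 and 10 at -0.35 against -0.10 (Wapal) and at -0.27 against -0.01 (Smc3).

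Among the 6 measured genes of RNA polymerase I transcription, 1 fell with Wapal depletion and 3 fell with Smc3 depletion. Polr1e encodes a subunit that helps the polymerase start and elongate. It had 217 and 219.9 in Wapal shRNA1 arrays and 221 and 248 in Wapal shRNA2 arrays, 276 and 266 in Smc3 shRNA1 arrays and 350.2 and 342 in Smc3 shRNA2 arrays, against 409 and 378 in Empty Vector arrays. Each of the 8 arrays with a hairpin was below both Empty Vector arrays, and the Wapal arrays were below all Smc3 arrays. The change was -0.80 ± 0.10 with Wapal depletion (1.74-fold lower, adjusted p = 0.00691) and -0.36 ± 0.09 with Smc3 depletion (1.29-fold lower, adjusted p = 0.0464). The Wapal call passed in all 6 fits that left out 1 array and the Smc3 call in 0 of 6. The other probe set of Polr1e was called lower with Wapal depletion (-0.89) but not with Smc3 depletion (-0.28, adjusted p = 0.117).

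Ubtf, which bends ribosomal DNA and keeps it open, had 528 and 490.5 in Smc3 shRNA1 arrays and 621 and 617 in Smc3 shRNA2 arrays, against 801 and 789 in Empty Vector arrays, and fell by 0.50 ± 0.09 on the log2 scale (adjusted p = 0.0122). Its Wapal arrays, at 671, 625, 709.9 and 748, were also below both Empty Vector arrays, but the change of -0.21 ± 0.09 did not pass (adjusted p = 0.211). Rrn3, the factor that brings the polymerase to its promoter, had 764 and 670.2 in Smc3 shRNA1 arrays and 708 and 764 in Smc3 shRNA2 arrays, against 922 and 1085 in Empty Vector arrays (-0.46 ± 0.11, adjusted p = 0.0387). The groups did not overlap, and in Wapal-depleted cells the value was -0.18 ± 0.10 (adjusted p = 0.327). For Ubtf and Rrn3 the direct comparison of the depletions passed too, with values higher in Wapal-depleted than in Smc3-depleted cells by 0.29 ± 0.07 (adjusted p = 0.014) and 0.28 ± 0.08 (adjusted p = 0.0386).

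The genes of the large catalytic subunits were not called against Empty Vector over both hairpins. Polr1b, for the second-largest subunit, had similar values with both depletions, -0.54 ± 0.15 with Wapal (adjusted p = 0.0684) and -0.53 ± 0.14 with Smc3 (adjusted p = 0.0588), and its Empty Vector arrays, at 599 and 465, differed on the log2 scale by more than those of any other of these 6 genes. Polr1a, for the largest subunit, has the least bright probe set of the members and had 119 and 111 in Wapal shRNA1 arrays and 149.6 and 135 in Wapal shRNA2 arrays, 166 and 139 in Smc3 shRNA1 arrays and 235 and 185 in Smc3 shRNA2 arrays, against 159.6 and 178 in Empty Vector arrays. Its 4 Wapal arrays were below both Empty Vector arrays, while its Smc3 arrays lay on both sides of them. It missed the threshold with Wapal depletion (-0.40 ± 0.10, adjusted p = 0.0564) but was lower in Wapal-depleted than in Smc3-depleted cells by a difference of -0.48 ± 0.10 (adjusted p = 0.00734). Polr1c, whose product RNA polymerase III shares, is the brightest of the group and had -0.02 ± 0.09 with Wapal and -0.17 ± 0.09 with Smc3, neither past the threshold.

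Of the 9 snoRNP genes, 1 fell with Wapal depletion and none was called with Smc3 depletion, where 5 had an unadjusted p under 0.05. The gene that fell was Nolc1, a nucleolar chaperone of snoRNPs, with 1705 and 1719 in Wapal shRNA1 arrays and 1897 and 2086 in Wapal shRNA2 arrays, against 2348 and 2588 in Empty Vector arrays (-0.42 ± 0.10, adjusted p = 0.0453). The Wapal and Empty Vector arrays did not overlap, though the call was lost in each of 6 fits that left out 1 array. The Smc3 value was -0.28 ± 0.10 (adjusted p = 0.139) with 2371 in 1 Smc3 shRNA2 array, inside the Empty Vector range. The core proteins of the box C/D particles, which guide methylation of the RNA, had values of -0.19 (Nop56), -0.15 (Nop58) and -0.15 (the methyltransferase gene Fbl) with Wapal depletion and -0.29, -0.28 and -0.11 with Smc3 depletion. Those of the box H/ACA particles, which guide pseudouridylation, ran from -0.27 (Gar1) to 0.06 (Nop10) with Wapal and from -0.25 (Nhp2) to 0.02 (the pseudouridine synthase gene Dkc1) with Smc3. Nop10 has the brightest probe set of this group and had 10812 and 11408 in Wapal shRNA1 arrays and 9690.4 and 9331 in Wapal shRNA2 arrays, against 10181 and 9499 in Empty Vector arrays. Rrp9, a protein of the U3 particle, had -0.15 and -0.28, so over the snoRNP genes the median was -0.15 with Wapal depletion and -0.25 with Smc3 depletion.

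In assembly of the small subunit, 3 of 19 genes fell with Wapal depletion and none was called with Smc3 depletion, where 9 had an unadjusted p under 0.05. Of the 3, 2 encode partners, Noc4l and Nop14, whose yeast counterparts form a complex of the early processing machinery. Noc4l had 459 and 427 in Wapal shRNA1 arrays and 477 and 521 in Wapal shRNA2 arrays, against 702 and 862 in Empty Vector arrays (-0.73 ± 0.11, 1.66-fold lower, adjusted p = 0.0141). Nop14 had 541 and 517 in Wapal shRNA1 arrays and 615 and 600.0 in Wapal shRNA2 arrays, against 749.6 and 788 in Empty Vector arrays (-0.44 ± 0.09, adjusted p = 0.0322). Both were lower in Wapal-depleted than in Smc3-depleted cells, Noc4l by -0.38 ± 0.08 (adjusted p = 0.0102) and Nop14 by -0.23 ± 0.07 (adjusted p = 0.0381), and their 4 Wapal arrays lay below the 4 Smc3 arrays.

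The other was Rrp12, which in yeast serves the export of pre-ribosomes. Rrp12 had 208 and 231 in Wapal shRNA1 arrays and 254 and 239 in Wapal shRNA2 arrays, 299.8 and 254 in Smc3 shRNA1 arrays and 412 and 386 in Smc3 shRNA2 arrays, against 318 and 409 in Empty Vector arrays. The Wapal change was -0.63 ± 0.12 (adjusted p = 0.0262), and the difference between the depletions was -0.51 ± 0.10 (adjusted p = 0.00452). Its Smc3 shRNA2 arrays were in or above the Empty Vector range and its Smc3 shRNA1 arrays below it, so the Smc3 value was -0.12 ± 0.13. Within a side, the difference was 0.33 for Smc3 shRNA2 minus Empty Vector 1 and -0.56 for Smc3 shRNA1 minus Empty Vector 2.

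Among the other small subunit genes, Utp20, a large protein of the early processing complex, had -0.32 ± 0.10 with Wapal (adjusted p = 0.099) and 0.14 ± 0.12 with Smc3, and the difference of -0.46 ± 0.09 passed (adjusted p = 0.00517). Pno1, which binds late small-subunit precursors, differed the other way. It had 3783 and 3787 in Wapal shRNA1 arrays and 3385 and 3248 in Wapal shRNA2 arrays, against 2522 and 2512 in Smc3 shRNA1 arrays and 3038 and 3157 in Smc3 shRNA2 arrays (difference 0.34 ± 0.07, adjusted p = 0.00625), and every Wapal array was above every Smc3 array. Wdr43, of the complex that joins the precursor first, was likewise higher by 0.24 ± 0.07 (adjusted p = 0.0278). The remaining genes of this group were not called in either depletion or between them. They include Utp15 (-0.37 with Wapal and -0.36 with Smc3, adjusted p = 0.0581 and 0.0503), Heatr1, Bysl, Tsr1, Imp4 and Nob1 with Wapal values between -0.35 and -0.25, the methyltransferase gene Emg1, the brightest of the group (-0.08 and -0.09), and Imp3, which had the highest Wapal value of all members (0.15 ± 0.09, adjusted p = 0.343). Rcl1, Wdr75, Ddx10, Utp18 and Ltv1 had Wapal values between -0.17 and -0.07.

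For the large subunit, 3 of 16 measured genes fell with Wapal depletion and 2 others with Smc3 depletion. Rrs1, which helps bring the 5S particle into the subunit, had 1889 and 1993 in Wapal shRNA1 arrays and 1930.5 and 1842 in Wapal shRNA2 arrays, 2326 and 2565 in Smc3 shRNA1 arrays and 2488 and 2489 in Smc3 shRNA2 arrays, against 2769 and 2827 in Empty Vector arrays (-0.55 ± 0.09 with Wapal, adjusted p = 0.0168). The Wapal arrays were the lowest and the Smc3 arrays lay between them and Empty Vector, with a difference between the depletions of -0.37 ± 0.07 (adjusted p = 0.00466). Rrp1b, a nucleolar protein related to a yeast large-subunit factor, had 717, 711, 698 and 771 in the Wapal arrays, against 957 and 953 in Empty Vector arrays (-0.40 ± 0.09, adjusted p = 0.0451), and was lower than in Smc3-depleted cells (-0.26 ± 0.07, adjusted p = 0.0278). Ftsj3, related to a yeast methyltransferase of ribosomal RNA, had 876, 911, 929 and 933 in the Wapal arrays, against 1224 and 1144 in Empty Vector arrays (-0.38 ± 0.09, adjusted p = 0.0492). Its Smc3 value of -0.27 ± 0.09 was not told apart from the Wapal one (difference -0.11 ± 0.07, adjusted p = 0.311).

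The genes that fell with Smc3 depletion were Noc3l and Noc2l, whose yeast counterparts bind each other on large-subunit precursors. Noc3l had 398 and 391 in Smc3 shRNA1 arrays and 475 and 485 in Smc3 shRNA2 arrays, against 750.0 and 609 in Empty Vector arrays (-0.64 ± 0.11, 1.55-fold lower, adjusted p = 0.0103). Its Wapal arrays, at 529, 566, 619 and 572, overlapped the Empty Vector range by 1 array (-0.24 ± 0.11, adjusted p = 0.237), and the difference between the depletions was 0.39 ± 0.08 (adjusted p = 0.00809). Noc2l had 293 and 258 in Smc3 shRNA2 arrays but 586 and 523 in Smc3 shRNA1 arrays, against 529 and 643 in Empty Vector arrays. Its mean Smc3 change of -0.58 ± 0.12 (adjusted p = 0.0213) thus came from shRNA2, with -1.08 (adjusted p = 0.0033) against -0.07 for shRNA1 (adjusted p = 0.81), and the hairpins differed by -1.01 ± 0.13 (adjusted p = 0.00397). The other probe set of Noc2l had 120 and 106 in Smc3 shRNA2 arrays and 91.9 and 101 in Smc3 shRNA1 arrays, so it did not show that difference (0.22 ± 0.14, adjusted p = 0.366).

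The remaining large subunit genes were called in neither depletion. Bop1, Nop2 and Grwd1 had Wapal values of -0.37, -0.36 and -0.32 and Smc3 values of -0.20, -0.27 and -0.26. Bop1 acts with Pes1 and Wdr12 in a complex that processes the precursor of the large subunit, and those partners had Wapal values of 0.06 and -0.05. Nip7 had -0.11 with Wapal and -0.31 with Smc3, Ebna1bp2 -0.10 and -0.25, Ddx18 -0.16 and -0.21, and the nucleostemin gene Gnl3 -0.05 and -0.11. Brix1, a large-subunit assembly factor with the brightest probe set of the group, had -0.13 and -0.16. Nop16 had 479 and 638 in Smc3 shRNA1 arrays and 862 and 840.4 in Smc3 shRNA2 arrays, against 949 and 708 in Empty Vector arrays, and its Smc3 value was -0.26 ± 0.15. The 3 nucleolar proteins with several roles were not called, though Ddx21 had an unadjusted p under 0.05 with both depletions. Npm1, with 17371, 17268, 16731 and 16347 in Wapal arrays against 17671 and 16841 in Empty Vector arrays, had -0.03 with Wapal and -0.05 with Smc3, Ncl had -0.09 and -0.13, and the helicase gene Ddx21 had -0.36 (adjusted p = 0.0562) and -0.29 (adjusted p = 0.102).

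**Figure D3:**
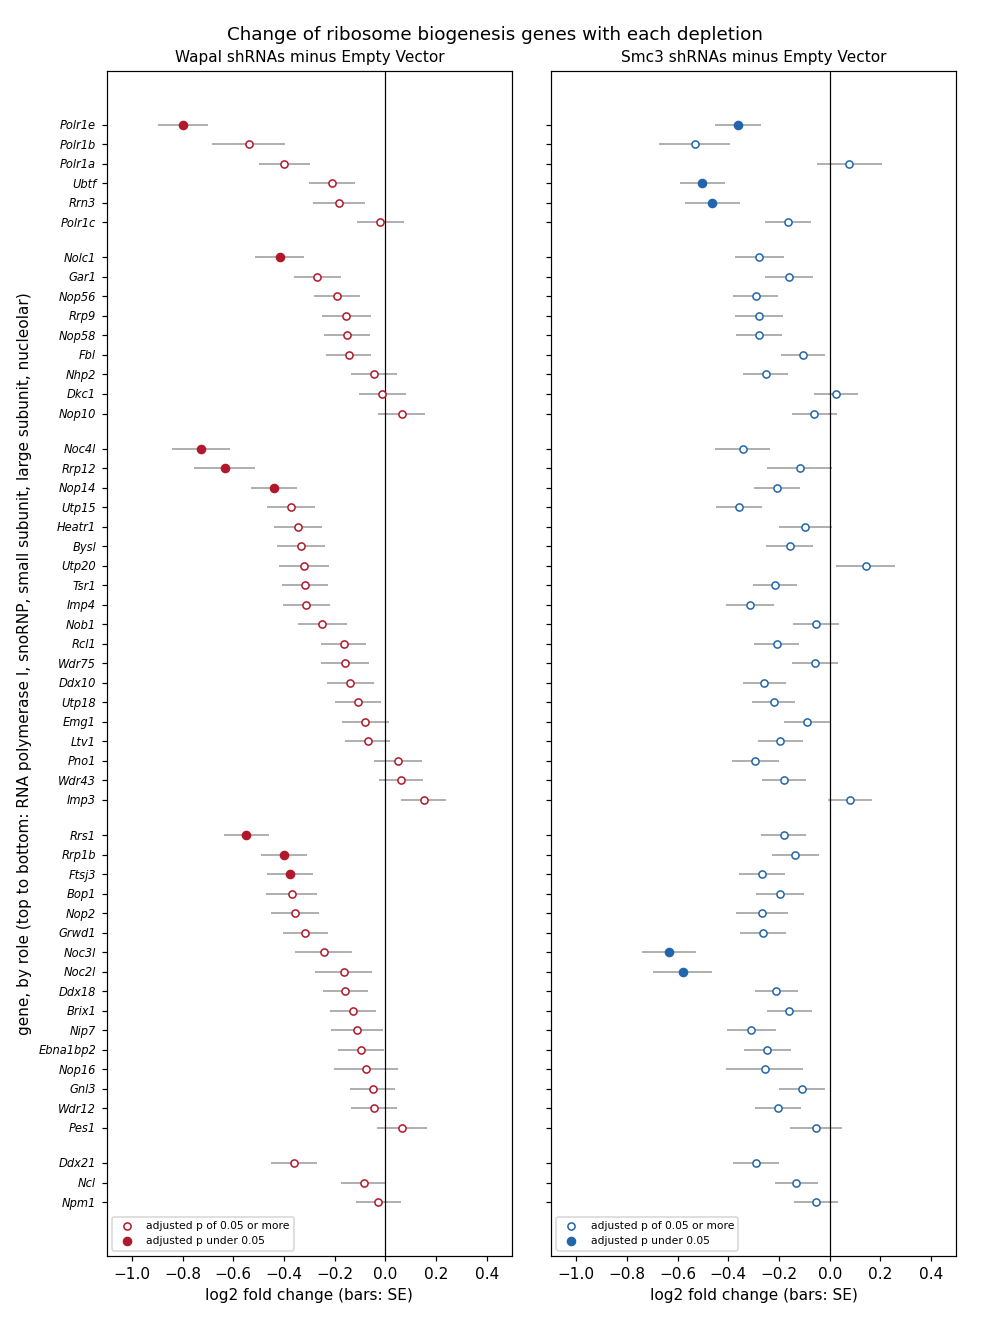
Log2 fold change (x axis, with SE bars) of each of the 53 members, in the 5 role groups from top to bottom, for Wapal shRNAs minus Empty Vector (left) and Smc3 shRNAs minus Empty Vector (right). Filled points passed the adjusted p of 0.05, 8 on the left and 5 on the right, and all of them lie below 0.

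**Figure D4:**
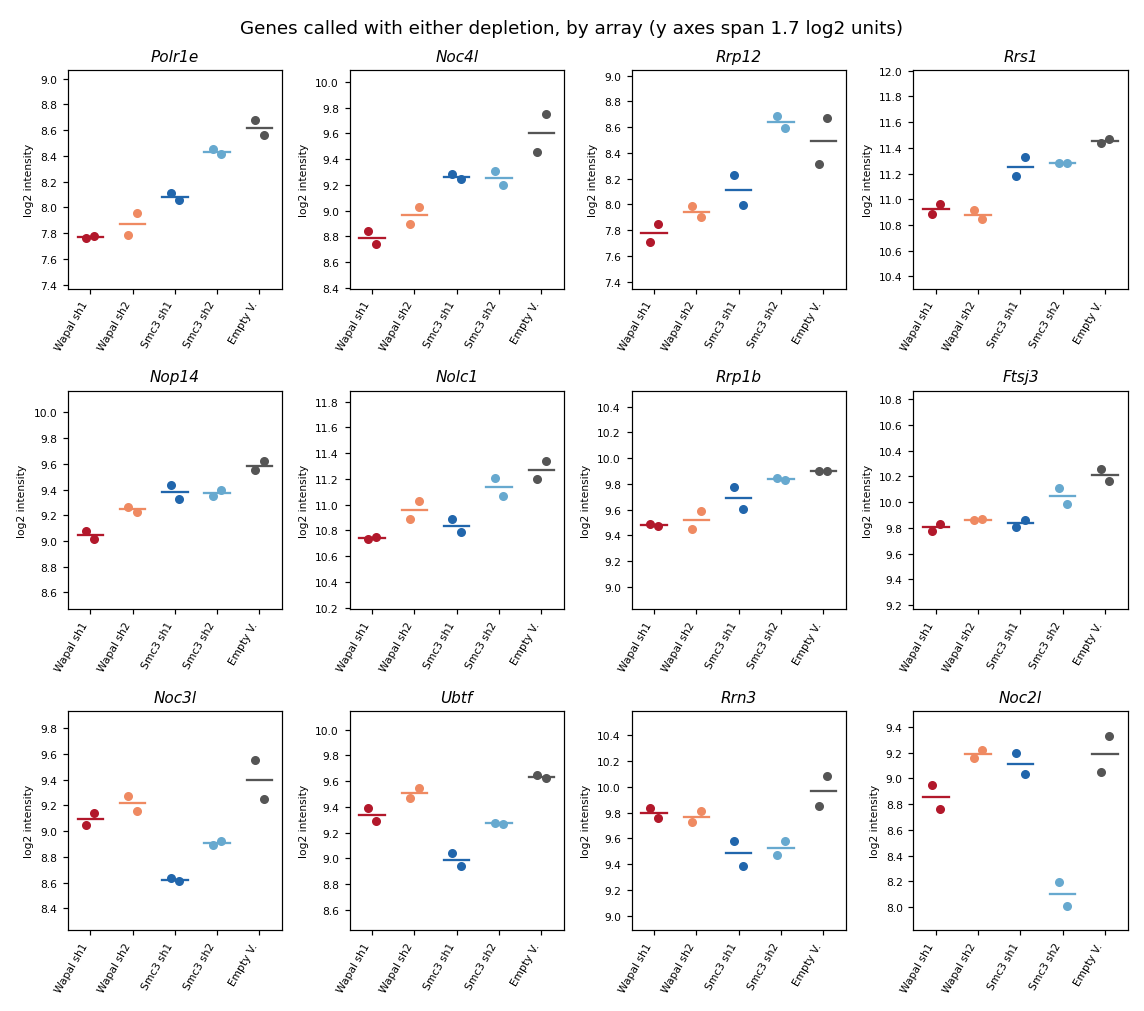
Log2 intensity (y axis, each panel spanning 1.7 units) of the 12 genes called with either depletion on every array, with Wapal shRNA1, Wapal shRNA2, Smc3 shRNA1, Smc3 shRNA2 and Empty Vector from left to right, points for arrays and bars for group means. Polr1e is lowest with Wapal and intermediate with Smc3, and Noc2l is low on the Smc3 shRNA2 arrays only.

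Set directly against each other in a fit of all 10 arrays (n = 4 each), the depletions differed for 14 members. Wapal-depleted cells were lower than Smc3-depleted cells for Polr1a, Polr1e, Utp20, Nop14, Noc4l, Rrp12, Rrs1 and Rrp1b, and higher for Noc2l, Noc3l, Pno1, Ubtf, Rrn3 and Wdr43. These are 8 and 6 of 53, or 15.1% and 11.3%, where 10.7% and 6.71% of all probe sets, and 23.3% and 9.72% of the 7600 genes, differed in those directions. The Empty Vector arrays entered this comparison only through the estimate of the spread. The differences of Polr1a, Polr1e, Utp20, Noc4l, Rrp12, Pno1, Noc2l, Noc3l and Rrs1 passed in all 10 fits that left out 1 array, and those of Rrn3, Ubtf, Wdr43, Nop14 and Rrp1b did not. With the mean over a gene's probe sets, the 8 lower ones passed, while Noc3l, Ubtf and Wdr43 did not.

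**Figure D5:**
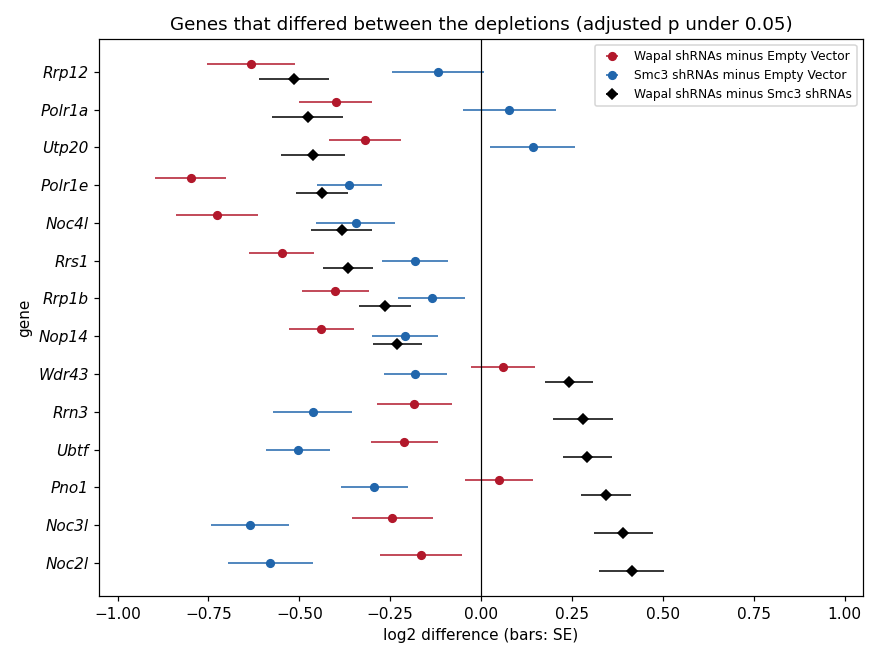
Log2 differences (x axis, with SE bars) of the 14 members that differed between the depletions: Wapal shRNAs minus Empty Vector (red), Smc3 shRNAs minus Empty Vector (blue), each from a fit of 6 arrays, and Wapal shRNAs minus Smc3 shRNAs (black diamonds) from a fit of 10 arrays. The 8 genes at the top are lower with Wapal, down to -0.51 for Rrp12, and the 6 at the bottom are higher, up to 0.41 for Noc2l.

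Each hairpin was also compared with Empty Vector on its own (n = 2 each). Wapal shRNA1 gave 8 lower members (Polr1a, Polr1e, Nolc1, Nop14, Noc4l, Rrp12, Nop2 and Rrs1) and Wapal shRNA2 gave 3 (Polr1e, Noc4l and Rrs1), where 3.26% and 2.16% of all probe sets were called lower. These are 15.1% and 5.66% of the members, and 544 and 318 of the 7600 genes were called lower. All 3 of the second hairpin were among the 8 of the first. Polr1e, with -0.85 and -0.75, Noc4l, with -0.81 and -0.64, and Rrs1, with -0.53 and -0.57, therefore fell with both Wapal hairpins. None of the 53 members differed between the Wapal hairpins in limma after adjustment, and 5 did at an unadjusted p under 0.05 (3 higher and 2 lower with shRNA2). Of all probe sets, 0.393% were lower and 0.713% higher with shRNA2, so a count of 0 is near that share, and the Wapal hairpins too lie on different sides of the arrays. The brightest probe sets of these 3 genes carry a suffix (x) by which the maker marks probes that can match other transcripts, and another probe set of each without it was lower with Wapal depletion too, with -0.89 for Polr1e, -0.53 for Noc4l and -0.53 for Rrs1.

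For Smc3, shRNA1 gave 7 lower members (Polr1b, Polr1e, Ubtf, Nop56, Imp4, Pno1 and Noc3l) and shRNA2 gave 2 (Noc2l and Noc3l), where 3.52% and 3.83% of all probe sets were called lower. These are 13.2% and 3.77% of the members, so the count for shRNA2 is near the share of all probe sets. Of the 7600 genes, 519 and 539 were called lower. Noc3l was the 1 member shared by both Smc3 hairpins, with -0.78 and -0.49. Between the Smc3 hairpins, 1 member was lower with shRNA2, Noc2l, and 1 was higher, Imp4, which binds the U3 particle. In all, 5.85% of the probe sets were lower and 4.04% higher. Imp4 had 1479 and 1424 in Smc3 shRNA2 arrays and 1049 and 954 in Smc3 shRNA1 arrays (0.54 ± 0.11, adjusted p = 0.0203), and another of its probe sets differed by 0.58 ± 0.10 (adjusted p = 0.0107). Smc3 shRNA1 and shRNA2 arrays lie on different sides of the split of arrays, so hairpin and side cannot be told apart in these differences.

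Other probe sets of the same genes gave more calls in the same direction. There were 53 further probe sets for 36 members, 11 of them dim, and 16 were called lower and none higher with Wapal depletion, 5 lower and none higher with Smc3 depletion. Of all probe sets, 3.83% and 3.41% were called lower with the Wapal and Smc3 depletions. Of the 7600 genes, on their brightest probe sets, 7.96% and 6.3% were. At an unadjusted p under 0.05 there were 30 lower and 0 higher with Wapal, and 28 lower and 1 higher with Smc3. Where the brightest probe set was not called, another was for Brix1 (-0.81, adjusted p = 0.00892), Bysl (-0.75, adjusted p = 0.00943), Utp15 (-0.58, adjusted p = 0.0188), Ncl (-0.49, adjusted p = 0.0449, and a dim probe set at -0.78), Grwd1 (-0.41, adjusted p = 0.0391) and Pes1 (-0.42, adjusted p = 0.0458, next to 0.06 on its brightest) in Wapal-depleted cells. In Smc3-depleted cells this held for Ncl (-0.53, next to -0.13 on its brightest probe set), Brix1 (-0.43), Ddx10 (-0.37) and Ddx18 (-0.51, on a dim probe set). For Nolc1 all 3 probe sets were lower with Wapal (-0.42, -0.47 and -0.998), and for Noc4l all 4 were. Noc3l, which was not called with Wapal depletion on its brightest probe set, had -0.75 on the other (adjusted p = 0.0428). What part of each transcript a probe set reads was not tested.

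The calls were few and depended on the arrays and the fit, with 3 to 21 members called lower for Wapal and 4 to 18 for Smc3 over the other normalization, filter, probe-set mean, replicate block, side term and fit of all 10 arrays. Leaving out any 1 array lowered the count to between 1 and 4 for Wapal and between 1 and 3 for Smc3, and no member was called in either comparison under the methods' t-test after adjustment, although 27 (Wapal) and 31 (Smc3) had an unadjusted p under 0.05 there. Of the fits that left out 1 array, Noc4l passed in 4 of 6 with Wapal, Rrp12 and Rrs1 in 1, and Nolc1, Nop14, Ftsj3 and Rrp1b in 0, while with Smc3 Noc3l passed in 5 (not without Empty Vector 1), Ubtf in 4, Noc2l in 3 and Rrn3 in 1. With the labels of 2 Wapal arrays exchanged, as they stand in the authors' supplementary table, no member was called with Wapal depletion, while the median of -0.17 and the 48 values below 0 stayed as they were, since the exchange is among the 4 Wapal arrays and touches only the spread. Within a side of the arrays, the 8 genes that fell with Wapal depletion differed by -0.91 to -0.42 for shRNA1 and by -0.79 to -0.30 for shRNA2, and the 5 that fell with Smc3 depletion by -0.63 to -0.22 for shRNA1 and by -0.94 to -0.24 for shRNA2.

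A second list of 118 ribosome biogenesis genes outside the 55, of which 117 were measured, gave the same direction of calls. It was read on the same arrays and chosen with earlier results of these data known, so it is not an independent test. With Wapal depletion 17 (14.5%) fell and none rose (median -0.22, 100 of 117 below 0), and with Smc3 depletion 13 (11.1%) fell and none rose (median -0.19, 102 below 0). Of all probe sets 3.83% and 3.41% were called lower with the Wapal and Smc3 depletions, and of the 7600 genes 7.96% and 6.3%. Values below 0 made up 46.8% and 50.2% of all probe sets and 63.5% and 51.6% of the 7600 genes. Without adjustment, p was under 0.05 for 57 lower and 4 higher genes with Wapal and for 49 lower and 1 higher with Smc3. The lowest with Wapal were Taf1c, a subunit of the selectivity factor of RNA polymerase I (-0.79 ± 0.09), Rrp8, a methyltransferase of the large-subunit RNA (-0.72 ± 0.09), and Ngdn, a protein of early small-subunit assembly (-0.64 ± 0.11). With Smc3 they were the RNA polymerase I subunit Polr1h (-0.73 ± 0.10), the helicase Ddx27 (-0.71 ± 0.09) and the kinase Riok2 of small-subunit maturation (-0.63 ± 0.09). Between the depletions 14 of the 117 (11.97%) were lower and 12 (10.3%) higher in Wapal-depleted cells, beside 10.7% and 6.71% of all probe sets and 23.3% and 9.72% of the 7600 genes.

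The transcription factor Myc fell with both depletions. It had 79.4 and 109 in Wapal shRNA1 arrays and 86.6 and 87.7 in Wapal shRNA2 arrays, 62.8 and 54.2 in Smc3 shRNA1 arrays and 138 and 122 in Smc3 shRNA2 arrays, against 274 and 214 in Empty Vector arrays (-1.43 ± 0.15 with Wapal, adjusted p = 0.00503, and -1.48 ± 0.13 with Smc3, adjusted p = 0.0007). All 8 arrays with a hairpin lay below both Empty Vector arrays. Mycn, its relative, had -0.11 ± 0.09 with Wapal (adjusted p = 0.543) and rose with Smc3 depletion by 0.42 ± 0.10 (adjusted p = 0.0374). In their network, Mlx fell with Wapal depletion (-0.68 ± 0.10, adjusted p = 0.0104) and the repressor gene Mxd4 rose with both (0.45 ± 0.11, adjusted p = 0.0476, and 0.60 ± 0.10, adjusted p = 0.00838). Max, the partner of Myc, was dim, and neither it nor Mycl, Mxd1, Mxd3, Mnt, Mxi1 or Mga was called against Empty Vector over both hairpins of a target. Between the depletions Mycn (-0.52), Mnt (-0.52), Mlx (-0.58) and Mycl (-0.30) were lower and Mxi1 (0.53) higher in Wapal-depleted cells. Whether the level of Myc had a part in the members' values was not tested.

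Myc with Max binds the canonical E-box, the letters CACGTG, which read the same on both strands. The 300 bases around each start site in RefSeq (250 before it and 50 from it on, build GRCm38.p6) were searched for these letters. Of the 53 members, 48 had such a window, and Bop1, Rrs1, Fbl, Rrp12 and Npm1 had none. The letters stood in a window of 11 of the 48 members (22.9%) and of 2187 of all 27025 genes (8.09%). They were Rrn3, Imp4, Nop2, Utp18, Grwd1, Ltv1, Utp20, Pes1, Pno1, Tsr1 and Wdr43. Members with the letters had a median of -0.18 with Wapal and -0.22 with Smc3, and the 37 without them -0.17 and -0.21, so the medians were close. None of the 6 genes with a window that fell with Wapal depletion, and 1 of the 5 that fell with Smc3 depletion, Rrn3, had the letters in the window. The 250 bases before the start are shown for Polr1e, which has no match and was called with both depletions on its brightest probe set. They are also shown for Rrn3, Nop2 and Imp4, which have a match before the start. Those were called over both Smc3 hairpins (Rrn3), with Wapal shRNA1 (Nop2) or with Smc3 shRNA1 (Imp4). The E-box letters are in capitals, and the last base stands just before the start site.
Polr1e (chr4:45018359-45018608, plus strand): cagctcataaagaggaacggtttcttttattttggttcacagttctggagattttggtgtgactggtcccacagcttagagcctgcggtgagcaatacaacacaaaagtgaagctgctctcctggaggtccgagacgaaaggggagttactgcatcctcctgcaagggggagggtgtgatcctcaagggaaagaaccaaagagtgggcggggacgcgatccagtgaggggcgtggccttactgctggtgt
Rrn3 (chr16:13780449-13780698, plus strand): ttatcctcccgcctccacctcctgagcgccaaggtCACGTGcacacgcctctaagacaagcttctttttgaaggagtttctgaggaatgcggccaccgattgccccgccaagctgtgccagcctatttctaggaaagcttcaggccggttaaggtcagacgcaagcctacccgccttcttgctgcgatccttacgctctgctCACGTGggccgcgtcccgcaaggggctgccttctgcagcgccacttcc
Nop2 (chr6:125131633-125131882, plus strand): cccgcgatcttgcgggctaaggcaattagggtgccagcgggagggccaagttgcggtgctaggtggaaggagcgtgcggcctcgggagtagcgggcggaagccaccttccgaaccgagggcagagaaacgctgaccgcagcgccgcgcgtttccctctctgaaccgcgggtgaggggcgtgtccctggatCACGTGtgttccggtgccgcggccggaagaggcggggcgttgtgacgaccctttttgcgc
Imp4 (chr1:34439579-34439828, plus strand): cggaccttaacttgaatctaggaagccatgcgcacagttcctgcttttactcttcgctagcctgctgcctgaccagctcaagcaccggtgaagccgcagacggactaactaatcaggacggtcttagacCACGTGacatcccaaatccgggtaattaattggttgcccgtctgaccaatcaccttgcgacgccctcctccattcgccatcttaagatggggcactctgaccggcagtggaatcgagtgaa
Rrn3 holds the letters at 2 places, beginning 215 and 48 bases before the start. In Nop2 they begin 60 bases before it and in Imp4 121 bases before it. A match is a description of the letters only.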

How the data were processed

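Total RNA of 10 ESC cultures was read on Affymetrix Mouse Genome 430 2.0 arrays. The deposited values are linear intensities, 1 per probe set, from the authors' RMA run (background correction, quantile normalization, summary of probes); the version, the arrays normalized together and the genome build of the array design are not given in the sources used here. RMA makes arrays alike in distribution, so a shift of most genes would not show, and it compresses dim probe sets. Of 45101 probe sets, 64 controls were left out and 45037 tested without a filter. Of these, 34945 carry 1 gene symbol in the platform annotation, 932 several and 9160 none.

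Groups came from GEO's labels. The authors' supplementary table exchanges Wapal shRNA1 replicate 2 with Wapal shRNA2 replicate 1. Replicates are named biological, without a word on separate infections or cultures, so p-values measure the spread between these samples, which may be technical, and the number of arrays limits the precision. After a log2 transform, limma 3.58.1 was used (lmFit, eBayes; R 4.3.3), with 1 mean per group, on the 6 arrays of a target and Empty Vector, or on all 10 for Wapal minus Smc3. Tests were two-sided. The scripts were tested on simulated data.

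Members and lists were chosen with earlier results of these data known. Each member stands for its probe set with 1 symbol and the highest mean log2. Named with full values were, per comparison, up to 10 members with the largest change in each direction past the threshold, the brightest member of each role group, members that differed between depletions or hairpins, the targets, the Myc network, and 3 genes per direction of the second list. The 2 extra probe-set comparisons for Noc2l and Imp4, and the other probe sets named, were chosen after their values were seen. Alternatives were another normalization, a filter on dim probe sets, the mean over probe sets, the replicate number as a block, the side of the arrays, exchanged labels, a plain t-test with pooled variance, all 10 arrays and leaving out each array. The paper names t-tests in general and none for single genes on the arrays.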

Additional observations from a re-analysis of the deposited data

Results flagged for a closer look

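For 14 members the difference between the depletions (Wapal minus Smc3, log2) passed the test itself, on the brightest probe set and as a mean over both hairpins of a target. Wapal-depleted cells were lower for Rrp12 (-0.515), Polr1a (-0.477), Utp20 (-0.462), Polr1e (-0.437), Noc4l (-0.384), Rrs1 (-0.366), Rrp1b (-0.265) and Nop14 (-0.231). They were higher for Noc2l (0.414), Noc3l (0.391), Pno1 (0.343), Ubtf (0.292), Rrn3 (0.28) and Wdr43 (0.242). For Noc2l this came from Smc3 shRNA2 (-1.08 against Empty Vector), as Smc3 shRNA1 had -0.07. The other probe set did not pass for Noc2l (0.31), Noc3l (-0.21, the other way), Ubtf (0.09) and Wdr43 (0.09). Among the lower genes another probe set passed for Polr1a (-0.46), Polr1e (-0.61), Noc4l, Rrs1 (-0.39) and Rrp1b (-0.68). Further ones of Polr1a and Rrp1b did not. Between the hairpins against Smc3, shRNA2 minus shRNA1 passed for Noc2l (-1.01) and Imp4 (0.536). The Noc2l difference stands on 1 of its 2 probe sets, and the Imp4 difference on both of its probe sets that were not dim.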

How the results depend on the processing

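With 2 arrays per group, few members passed and the counts moved with the processing. Of 697 values recomputed under an alternative, 503 were log2 fold changes of members, Wapl, Smc3 or Myc that had been called. Of these 503, 360 kept their direction and passed, 143 kept the direction but no longer passed, and 0 reversed. The other values were counts of members called, which cannot reverse, and medians over the members. Of those, 61 moved beyond a set margin. The members called lower with Wapal depletion (8) became 3 after quantile normalization, 21 with only probe sets of mean log2 of at least 6, 19 with the mean over a gene's probe sets, 14 with a term for the side, 17 with all 10 arrays in the fit, and 0 with the supplementary labels or the plain t-test. Of all features tested, 2.18%, 14.4%, 6.57%, 4.74% and 5.84% were lower in the first 5 of these, and 0.0799% and 0% in the others. For Smc3 depletion (5) they became 18 with the filter, 15 with the mean over probe sets, 10 with all 10 arrays and 0 with the plain t-test, where 10.9%, 5.96%, 4.69% and 0.00888% of all features were lower. Between the depletions, 8 lower became 13 with the mean over probe sets and 6 higher became 2 with the supplementary labels. For single hairpins, Wapal shRNA1 (8) gave 3 after quantile normalization and 0 with the supplementary labels, Wapal shRNA2 (3) gave 0 with those labels, Smc3 shRNA2 (2) gave 1 after quantile normalization, and Smc3 shRNA2 minus shRNA1 had 3 higher in place of 1. The median over the members for Wapal shRNA2, -0.198, was -0.132 against the Empty Vector array of its side alone. The cause was not tested, except that the filter leaves fewer probe sets to adjust over.

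Leaving out 1 array at a time gave 1 to 4 lower members for Wapal, 1 to 3 for Smc3, 6 to 8 lower and 3 to 7 higher between the depletions, 0 to 4 for Wapal shRNA1, 0 to 3 for Wapal shRNA2, 0 to 9 for Smc3 shRNA1, 1 to 2 for Smc3 shRNA2 and, for Smc3 shRNA2 minus shRNA1, 1 lower and 0 to 3 higher. Same-numbered replicates did not deviate together (r of replicate 2 minus 1 between groups from -0.156 to 0.0569, over 10 pairs of groups). With the replicate number as a block, the lower calls were 4 for Wapal, 4 for Smc3, 4 for Wapal shRNA1 and 1 for Smc3 shRNA2.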
